A study of Mus musculus with 477 samples.

Results

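The Notch receptors, ligands and targets are 10 genes of the 21004 in the count table: the receptors *Notch1*, *Notch2*, *Notch3* and *Notch4*, the ligands *Jag1*, *Jag2* and *Dll1*, and the target genes *Hes1*, *Hey1* and *Nrarp*. They were chosen by name for their place in the pathway, and each was followed across 477 single mouse mammary cells of 10 groups. The cells came from 11 mice, 7 of which gave luminal cells and 4 of which gave tumor cells. Of the luminal mice, 3 were virgin (vBrL, vBr53L and v53L) and 4 were pregnant at day 12.5 (pBrL-1, pBrL-2, pBr53L and p53L). All luminal mice were females of 3 to 4 months carrying *MMTV-Cre* and the *ROSA mT/mG* reporter, in which Cre activity switches a cell to membrane GFP. Br stands for *Brca1* fl/fl, 53 for *Trp53* fl/+ with wild-type *Brca1*, and Br53 for *Brca1* fl/fl with *Trp53* fl/+, so no mouse was free of a conditional allele. The tumors BrT1 and BrT2 arose in Br mice and Br53T1 and Br53T2 in Br53 mice, all with *MMTV-Cre*. *MMTV-Cre* acts mainly in mammary epithelium and need not act in every cell. Luminal cells had been sorted as CD24 high, CD29 low and GFP positive, and tumor cells by CD24 alone after depletion of blood and endothelial cells. Each tumor group was 1 mouse, and pBrL was the 1 luminal group with 2 mice.

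Notch receptors sit on the cell surface and are activated by Jagged or Delta ligands on a neighboring cell. Pulling on the receptor exposes it to the protease ADAM10 and then to gamma-secretase, which frees the intracellular domain to enter the nucleus and act with the DNA-binding protein RBPJ. *Hes1* and *Hey1* encode repressors of transcription that are switched on by this complex, and *Nrarp* encodes a feedback inhibitor of it. In the mammary gland, Notch signaling is known for promoting the luminal fate, and ligands such as *Jag1* and *Dll1* have been linked to basal cells.

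The cells of a mouse held 40.3 to 116 M reads in sum, and single cells held 170209 to 3550564 reads. Values are given as CPM, counts per 1 M reads, where the count of a gene is divided by all reads of the mouse. The deleted genes gave no check of the labels, since counts over a whole gene do not resolve a deleted exon. *Brca1* was at 2.03 to 31.8 CPM in *Brca1*-deficient luminal mice, at 5.21 to 6.99 CPM in *Brca1* wild-type ones and at 1.7 to 57.2 CPM in tumors. *Trp53* was at 92.5 to 515, 93.4 to 177 and 5.05 to 140.4 CPM in these 3 sets. The 6 luminal markers, such as *Krt8* and *Epcam*, summed to 7358 to 12881 CPM in the 7 luminal mice. In tumors they summed to less, 4109 to 5815 CPM in 3 tumors and 514 CPM in BrT1. BrT1 stood apart by mesenchymal markers (9458 CPM over 6 genes, with *Vim* at 4079.8 CPM and *Fn1* at 4926 CPM). Of the 6 fibroblast markers, *Dcn* was at 4356 CPM in BrT1 and *Pdgfra* at 105 CPM. *Col1a1* and *Col3a1* were at 20.4 and 7.55 CPM there, and *Lum* and *Dpt* had no read. *Dcn* was also at 711, 579 and 176 CPM in vBrL, vBr53L and v53L, and at 25.4 CPM or less in the pregnant mice. Of the mesenchymal markers, BrT2 shared with BrT1 a high level of *Fn1* alone (6199.9 CPM), with *Vim* at 306 CPM, near the 156 and 212 CPM of the Br53 tumors. Br53T2 stood apart by basal markers (5335 CPM over 6 genes, against at most 375 CPM elsewhere). Among the tumors it also stood apart by 8 hormone-sensing markers, such as *Prlr* (1805 CPM in sum, against 93.3 to 113 CPM). The 6 endothelial markers summed to at most 10.2 CPM in any mouse. The SC numbers in the sample titles, named library batches in the study's metadata, split the cells into 8 sets. Among them, only SC6 held both luminal cells (pBrL-2) and tumor cells (Br53T2), so batch and tissue cannot otherwise be told apart.

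In GRCm38, the assembly also called mm10, *Notch1* is at chr2:26457903-26516663, *Notch2* at chr3:98013527-98150361, *Notch3* at chr17:32120820-32166852 and *Notch4* at chr17:34564268-34588503. The ligands are at chr2:137081456-137116644 (*Jag1*), chr12:112907819-112929776 (*Jag2*) and chr17:15367354-15376872 (*Dll1*). The targets are at chr16:30064384-30067796 (*Hes1*), chr3:8663359-8667256 (*Hey1*) and chr2:25180758-25183339 (*Nrarp*). The library kit does not mark strand, so reads of a gene and of a gene on the opposite strand cannot be told apart. In GENCODE vM21, a gene on the opposite strand covers 79.4% of the exon bases of *Nrarp* and 20.5% of those of *Dll1*, and neither of these antisense genes is a row of the count table. The level of *Nrarp* is therefore uncertain, and that of *Dll1* in part.

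Per kilobase of exon, the order of the mean levels was led by *Hes1* in both tissues, with 51.8 CPM per kb over the 7 luminal mice and 41.2 CPM per kb over the 4 tumors. In luminal mice *Notch2* came next at 13.1 CPM per kb, then *Jag1* (4.11), *Hey1* (2.65), *Notch1* (1.83) and *Notch3* (1.81), with *Notch4*, *Dll1*, *Nrarp* and *Jag2* at 0.0106 CPM per kb or less. In tumors *Jag1* came next after *Hes1* at 23.1 CPM per kb, then *Notch2* (21), *Hey1* (14.3), *Dll1* (6.15), *Notch1* (1.41), *Notch3* (1.19), *Notch4* (0.471), *Jag2* (0.116) and *Nrarp* (0.00582). *Hes1* led in each luminal mouse but in only 2 of the 4 tumors, since *Notch2* (42.3) led in BrT1 and *Hey1* (51.9) in Br53T1. The place of *Hey1* above *Dll1* rested on Br53T1, as *Hey1* was at 0.463, 3.28 and 1.47 CPM per kb in BrT1, BrT2 and Br53T2. Several other neighbors in these orders do not differ beyond their spread. In luminal mice *Notch1* ranged from 0.649 to 4.3 CPM per kb and *Notch3* from 1.18 to 3.73. In tumors *Jag1* ranged from 6.84 to 51.2 CPM per kb and *Notch2* from 11.8 to 42.3.

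**Figure D1:**
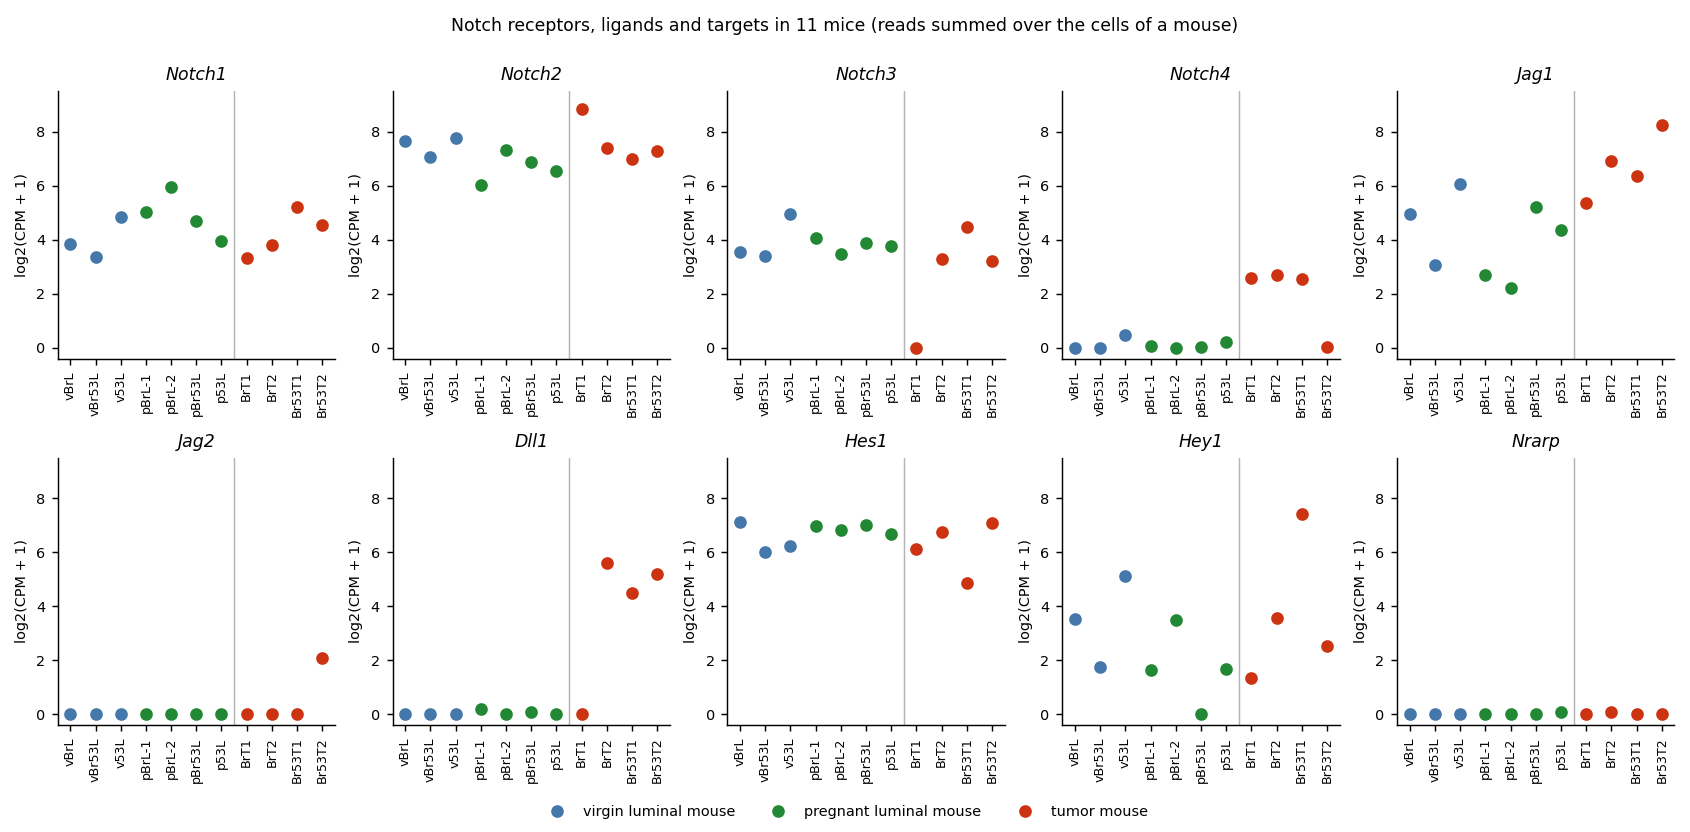
Level of each of the 10 genes in each of the 11 mice, as log2(CPM + 1) of the reads summed over the cells of the mouse, with virgin luminal mice in blue, pregnant luminal mice in green and tumors in red. *Notch2* is high in all mice and *Hes1* in all but Br53T1, *Dll1* stands above 4 on this scale in 3 of 4 tumors and near 0 in the 7 luminal mice, and *Hey1* is highest in Br53T1.

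The first question was how tumor cells differ from the *Brca1*-deficient luminal cells that resemble their origin, and it was asked of 4 tumors against the 5 mice vBrL, vBr53L, pBrL-1, pBrL-2 and pBr53L. By edgeR's quasi-likelihood test on reads summed per mouse, 0 of the 6 members with enough reads to be tested passed a Benjamini-Hochberg adjusted p of 0.05, against 0.609% of the 12978 genes tested. At an unadjusted p under 0.05 there was 1 member, *Jag1*, against 13.8% of the genes tested. By DESeq2 on the same sums 1 member was called, *Jag1* again, where 6.23% of all genes were called. DESeq2 gave no p for *Hey1*. The 4 members *Notch4*, *Jag2*, *Dll1* and *Nrarp* had too few reads in too few mice to be tested. The median log2 fold change of the 6 tested members was 0.07, against 0.06 over all genes tested.

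*Jag1*, which encodes the ligand Jagged1, showed the clearest separation of the tested members. It was at 298 CPM in Br53T2, 80.6 in Br53T1, 119 in BrT2 and 39.8 in BrT1. In the *Brca1*-deficient luminal mice it was at 30.3 CPM in vBrL, 7.35 in vBr53L, 5.5 in pBrL-1, 3.62 in pBrL-2 and 35.7 in pBr53L. Every tumor was thus above these 5 luminal mice, the lowest tumor only narrowly, while the *Brca1* wild-type mouse v53L (65.9 CPM) lay among the tumors. Lack of overlap with tumors higher was found for 1 of the 6 tested members, *Jag1*, and for 5.01% of all genes tested. The means were 134 ± 114 CPM (SD, n = 4) and 16.5 ± 15.3 CPM (SD, n = 5), a fitted log2 fold change of 2.87 ± 0.81 (SE) or 7.33-fold, with an adjusted p of 0.146 by edgeR and of 0.0084 by DESeq2. Without Br53T2, the tumor with high basal markers, the log2 fold change was 2.17 ± 0.81 (edgeR adjusted p = 0.243), and without BrT1 it was 3.18 ± 0.79 (edgeR adjusted p = 0.114). In batch SC6, which held both tissues, *Jag1* was at 3.62 CPM in pBrL-2 and at 298 CPM in Br53T2.

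*Jag1* was also found in a larger share of cells in each tumor than in any luminal mouse. After each cell was thinned to 100000 reads, *Jag1* was detected in 78.4% of cells in Br53T2, 43.3% in Br53T1, 51.4% in BrT2 and 53.2% in BrT1. In the 7 luminal mice, it was detected in 7.04% to 25% of cells. Of the genes tested, 6.68% had such shares, with every tumor above every luminal mouse. A thinned cell held a median of 3940 to 5000 genes in the tumors and 2774 to 4301 in the luminal mice, and the part of this in the shares was not tested. The exact 95% binomial intervals, which cover counting error only, ran from 25.5% to 62.6% in Br53T1 and from 12.7% to 41.2% in v53L, and so overlapped. The single cell with the most *Jag1* reads gave 26.1% to 30.2% of the tumor's *Jag1* reads in each of the 4 tumors. Within Br53T2 the *Jag1* level of a cell had a Spearman rho of -0.46 with its luminal marker level and of 0.34 with its basal marker level over 51 cells, which share a tumor and a library batch. These values were -0.28 and 0.27 in BrT2, 0.21 and 0.02 in BrT1, and 0.08 and 0.11 in Br53T1. The part of basal-like cells in the *Jag1* level of Br53T2 was not tested.

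*Dll1*, which encodes the ligand Delta-like 1, was nearly absent from luminal cells. It was at 47.1 CPM in BrT2, 21.6 in Br53T1 and 35 in Br53T2, and no read of it was found in BrT1. Among luminal mice it was at 0.13 CPM in pBrL-1 and 0.0596 CPM in pBr53L, and no read was found in the other 5. In reads, the 4 tumors held 6718 and the 7 luminal mice 21, and a read was seen in 44 of 165 tumor cells and 2 of 312 luminal cells. No fold change is given, since the fitted value against levels this close to 0 depends on the prior count. *Dll1* did not pass the low-count filter, and without that filter its edgeR adjusted p was 0.0724. With BrT1 left out it was called by edgeR, as were 0.372% of genes in that fit. It entered that fit only through the 3 tumors where it was high, so the call follows from leaving out the tumor without a read and is no support for a difference. The tumor without a read, BrT1, was the one with the fewest luminal markers. Of the tumors with *Dll1*, Br53T2 was high in basal markers (5335 CPM) whereas BrT2 held 21 CPM and Br53T1 274 CPM. Within Br53T2 the *Dll1* level of a cell had a Spearman rho of 0.39 with its basal and -0.48 with its luminal marker level, and in BrT2 these were 0.07 and 0.06 and in Br53T1 0.04 and -0.27.

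*Dll1* reads were concentrated in few cells. After thinning, *Dll1* was detected in 5 of 37 cells of BrT2, 5 of 30 of Br53T1 and 11 of 51 of Br53T2, and 1 cell gave 43.3% to 53.3% of the reads in each of these tumors. In Br53T2, 10 of the 11 cells with *Dll1* also held *Jag1* (90.9%), against 75% of the cells without *Dll1*. In BrT2 the shares were 80% of 5 cells and 46.9%, and in Br53T1 they were 40% of 5 cells and 44%. All 21 of these cells held *Notch2*, as did 87.5% to 100.0% of the cells without *Dll1* in the same tumors.

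*Jag2* and *Notch4* were rare. *Jag2*, the other Jagged ligand, was at 3.23 CPM in Br53T2, in 7 of 51 cells, and at 1 read in pBr53L. No *Jag2* read was found in the remaining 9 mice. *Notch4*, a receptor best known from endothelium, was at 0.022 CPM in Br53T2, 4.77 in Br53T1, 5.45 in BrT2 and 4.93 in BrT1, and at no more than 0.372 CPM in any luminal mouse. It came from 16 of 165 tumor cells, and the cell with the most reads gave 71.1% of those of BrT1. In BrT1, BrT2 and Br53T1 the 6 endothelial markers summed to 3.23, 4.73 and 0.164 CPM, against 0.173 to 4.51 CPM in luminal mice. Of these markers *Cdh5* and *Tie1* had no read in the 3 tumors, *Pecam1* was at 2.79 CPM in BrT1, and *Emcn* and *Egfl7* were at 2.04 and 2.66 CPM in BrT2. The part of endothelial cells in the *Notch4* level was not tested. Without the low-count filter the edgeR adjusted p in the tumor comparison was 0.187 for *Notch4* and 0.288 for *Jag2*.

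The upstream sequences of *Dll1*, *Jag1* and *Notch4* are shown because these were the members with the largest differences in level, on a log scale, between tumors and luminal mice that more than 1 tumor shared. They come from RefSeq promoter windows on GRCm38.p6, which held 8 of the 10 members and not *Hes1* and *Hey1*. Each is written 5′ to 3′ on the strand of the gene, cut to the bases outside the GENCODE gene. Capitals mark E-boxes (CANNTG, the letters that basic helix-loop-helix factors bind) and the AP-1 letters TGANTCA.
Dll1, minus strand, chr17:15376933-15377182: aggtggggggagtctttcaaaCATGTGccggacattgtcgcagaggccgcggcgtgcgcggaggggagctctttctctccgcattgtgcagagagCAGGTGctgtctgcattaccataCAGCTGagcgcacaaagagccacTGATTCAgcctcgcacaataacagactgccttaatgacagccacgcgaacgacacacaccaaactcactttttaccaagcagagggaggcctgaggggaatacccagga
Jag1, minus strand, chr2:137116645-137116770: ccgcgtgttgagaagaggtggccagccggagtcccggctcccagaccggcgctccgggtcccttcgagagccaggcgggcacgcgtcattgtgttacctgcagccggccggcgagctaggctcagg
Notch4, plus strand, chr17:34564045-34564267: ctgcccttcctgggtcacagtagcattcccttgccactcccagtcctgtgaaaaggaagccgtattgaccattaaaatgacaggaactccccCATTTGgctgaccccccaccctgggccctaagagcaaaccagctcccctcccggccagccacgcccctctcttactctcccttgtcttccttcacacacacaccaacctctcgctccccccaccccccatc

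The *Dll1* stretch, a full window of 250 bases, held 3 E-boxes and 1 AP-1 match, and the shorter *Notch4* stretch 1 E-box. The *Jag1* stretch held neither, while its full window held 1 E-box at -82 from the start, in the bases not printed. Over all 32851 RefSeq windows of 250 bases, an E-box was found in 66.2% and the AP-1 letters in 6.75%. The *Jag1* stretch held 14 CG pairs in 126 bases and the *Notch4* stretch 4 in 223 bases. The core of the RBPJ site, TGGGAA on either strand, was found in none of the 9 windows of the 8 members and in 21.6% of all windows. These are matches of letters and say nothing of binding.

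Among the receptors, *Notch2* supplied most of the reads. It was at 154 CPM in Br53T2, 127 in Br53T1, 167 in BrT2 and 456 in BrT1, and between 65 and 199 CPM (median 135) in the 5 luminal mice of this comparison. BrT1 was above all other mice and the other 3 tumors lay within the luminal range. The log2 fold change was 0.59 ± 0.43 (SE, edgeR adjusted p = 0.593), and 0.04 ± 0.36 without BrT1. Of the reads of the 4 receptors, *Notch2* took 58.1% (pBrL-1) to 97% (BrT1), and it was detected in 84.6% to 100.0% of the cells of every mouse after thinning.

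*Notch1* and *Notch3* were lower than *Notch2* per kilobase in every mouse and overlapped between tissues. *Notch1*, a receptor found on luminal progenitors, was at 8.95, 12.9, 36.3 and 22.1 CPM in BrT1, BrT2, Br53T1 and Br53T2, and between 9.23 and 61.3 CPM (median 25.1) in those 5 luminal mice. Its log2 fold change was -0.61 ± 0.65 (SE, edgeR adjusted p = 0.732). *Notch3* was at 8.82 CPM in BrT2, 21.4 in Br53T1 and 8.26 in Br53T2, and no read of it was found in the 47 cells of BrT1. In the luminal mice of the comparison it was at 9.56 to 15.6 CPM, and the log2 fold change was -0.45 ± 1.27 (SE, edgeR adjusted p = 0.926), and -1.15 without Br53T1. After thinning, at least 2 of the receptors were detected in the same cell for 17% of the cells of BrT1 and 73.3% of those of Br53T1, with 35.1% to 65.8% in the other mice.

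The targets differed from one another. *Hes1* was at 133 CPM in Br53T2, 28 in Br53T1, 105 in BrT2 and 68.5 in BrT1, against 63.3 to 137 CPM (median 123) in the 5 luminal mice. Only Br53T1 was outside the luminal range, and the log2 fold change was -0.55 ± 0.44 (SE, edgeR adjusted p = 0.637). *Hey1* was at 4.79 CPM in Br53T2, 169.6 in Br53T1, 10.7 in BrT2 and 1.51 in BrT1, against 0 to 10.4 CPM (median 2.31) in those luminal mice. The *Hey1* log2 fold change of 3.08 ± 1.61 (SE, edgeR adjusted p = 0.436) thus rested on Br53T1, and it was 0.15 ± 1.66 without that tumor. In Br53T1 *Hey1* was spread over the cells: a read was present in 25 of 30, and the top cell gave 11.1% of the reads. The same tumor had the lowest *Hes1* level of the 11 mice, detected in 53.3% of its cells after thinning. *Hes1* was detected in 56.5% of its cells with *Hey1* and in 42.9% of those without. *Nrarp* had 7 reads in all, in 3 cells of pBrL-1, p53L and BrT2, and after thinning it was detected in no cell.

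**Figure D2:**
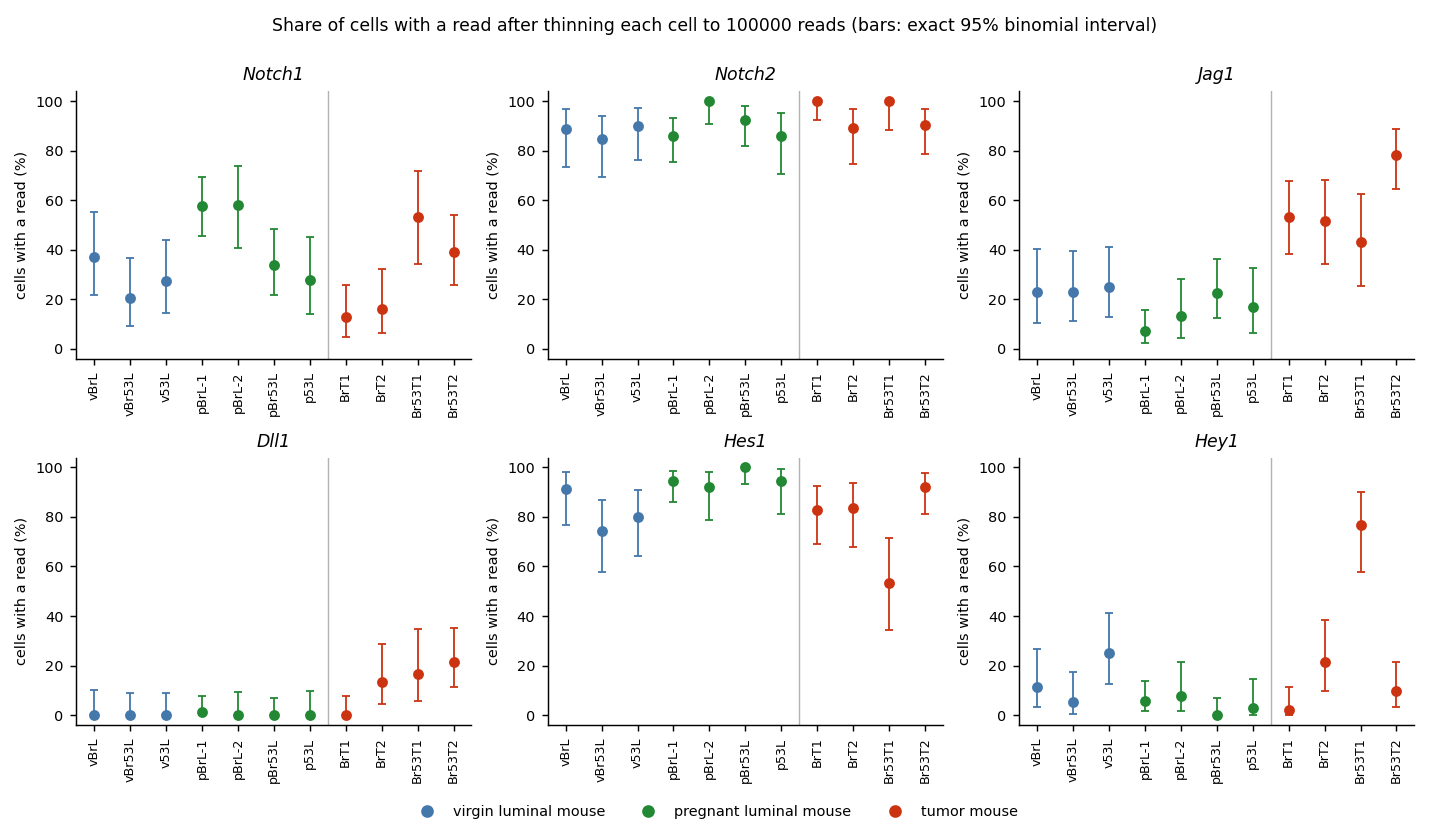
Share of the cells of each mouse with at least 1 read of 6 of the genes after each cell was thinned to 100000 reads, with exact 95% binomial intervals. *Notch2* and *Hes1* were found in most cells, the 4 tumors have the highest shares for *Jag1*, and the share of 76.7% for *Hey1* in Br53T1 exceeds that of every other mouse.

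Ligand and receptor reads were found together in a larger share of cells in each tumor than in any luminal mouse. A read of any of the 3 ligands was found, after thinning, in 80.4% of the cells of Br53T2, 53.3% in Br53T1, 54.1% in BrT2 and 53.2% in BrT1. In luminal mice this share was 8.45% (pBrL-1) to 25% (v53L), so the tissues did not overlap in it, and the part of the number of genes found per cell, given above, was not tested here either. *Jag1* was in 25 of 25 ligand cells of BrT1 and 19 of 20 of BrT2. It was in 13 of 16 of those of Br53T1 and 40 of 41 of those of Br53T2. The ligand share thus largely restates the *Jag1* shares given above, a pattern found for 6.68% of the genes tested. A receptor read was found in 87.2% to 100.0% of cells of every mouse, so nearly all cells with a ligand held a receptor as well, namely 51.4% to 74.5% of all cells in tumors and 8.45% to 22.9% in luminal mice. No test was made on this score over the members.

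**Figure D3:**
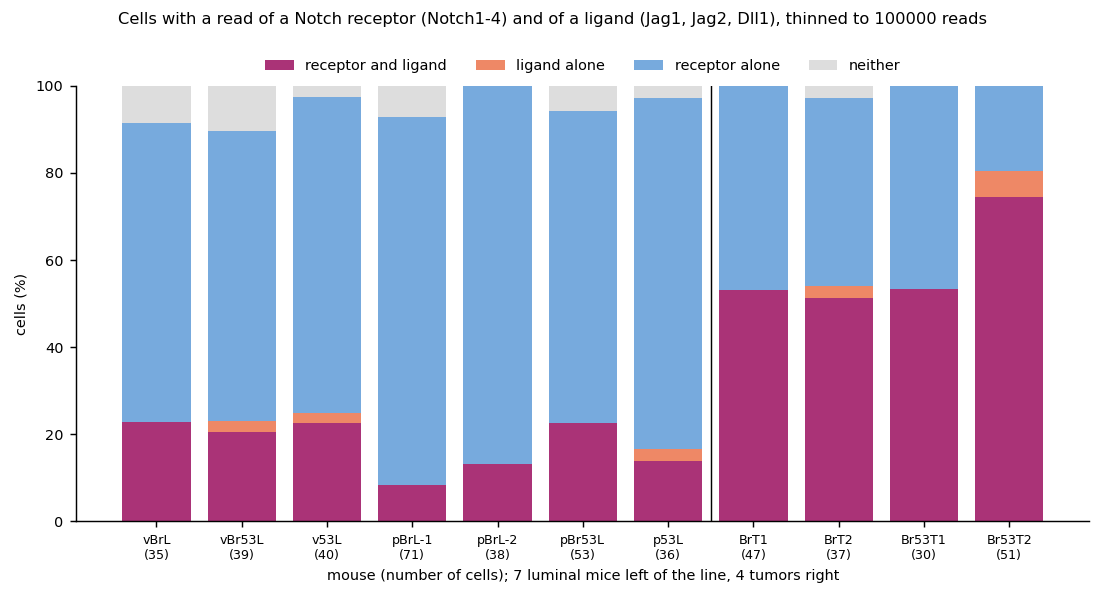
Share of the cells of each mouse with a read of at least 1 receptor, of at least 1 ligand, of both or of neither, after thinning to 100000 reads, with the number of cells below each mouse. Cells with both make up 51.4% to 74.5% in the 4 tumors to the right of the line and 8.45% to 22.9% in the 7 luminal mice to the left. Most cells with a ligand read held *Jag1*.

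The other genes of the pathway were examined by role. Of 46 other pathway genes in the table, 40 were tested in the tumor comparison, and 0 passed by edgeR (0.609% of all genes), 0 at an unadjusted p under 0.05 (13.8%) and 0 by DESeq2 (6.23%). Their median log2 fold change was -0.13, against 0.06 over all genes. By role it was -0.10 for 4 genes of receptor glycosylation, -0.08 for 10 of cleavage, -0.23 for 4 of ligand endocytosis, -0.13 for 10 of the nuclear complex, -0.25 for 8 of turnover and modulation and -0.22 for 4 other targets. The smallest unadjusted p were those of *Heyl*, *Snw1* and *Maml2*. *Heyl*, a relative of *Hey1*, was at 0 to 0.461 CPM in tumors and at 0.189 to 6.4 CPM in the luminal mice compared (edgeR adjusted p = 0.367). *Snw1*, a cofactor of the nuclear complex, had a log2 fold change of -0.61 ± 0.28 (SE, edgeR adjusted p = 0.369). *Maml2*, a coactivator, had one of -1.07 ± 0.57 (SE, edgeR adjusted p = 0.445). *Dll4*, a ligand outside the 10 that is best known from vessels, was at 15.1 CPM in BrT2 and at no more than 0.374 CPM elsewhere. It was too rare to be tested and was picked out after its values were seen.

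The second question was whether pregnancy at day 12.5 altered luminal cells. The 4 pregnant mice were compared with the 3 virgin mice with genotype as a covariate. By edgeR 0 of 6 tested members passed, where 0.0159% of 12615 genes were called, and 0 had an unadjusted p under 0.05, against 9.74% of genes. By DESeq2 1 member was called, *Hey1*, where 7.67% of all genes were called. The median log2 fold change of the tested members was -0.39, against 0.12 over all genes.

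*Hey1* was at 33.3 CPM in v53L, 2.31 in vBr53L and 10.4 in vBrL, and at 2.06, 10.2, 0 and 2.18 CPM in pBrL-1, pBrL-2, pBr53L and p53L. The ranges overlapped through pBrL-2, and the log2 fold change was -3.94 ± 2.16 (SE), with an adjusted p of 0.619 by edgeR and 0.0435 by DESeq2. Its size was unstable, at -2.17 without vBr53L, without pBr53L or without the covariate, and at -6.05 without vBrL and -6.01 with library batch in place of genotype. In the batches that held both stages, it was at 2.31 CPM in vBr53L and without a read in pBr53L on SC7, and at 33.3 CPM in v53L and 2.18 CPM in p53L on SC9. *Hey1* reads came from at most 11 cells in any luminal mouse, and 1 cell gave 94% of those of p53L and 88.5% of those of vBr53L.

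The receptors overlapped between stages as well. *Notch2* was at 199, 135 and 217 CPM in vBrL, vBr53L and v53L and at 65, 160.3, 117 and 93 CPM in pBrL-1, pBrL-2, pBr53L and p53L. The log2 fold change was -0.72 ± 0.38 (SE, edgeR adjusted p = 0.608). *Notch1* was at 16.8 ± 9.76 CPM (SD, n = 3) in virgin and 33 ± 20.1 CPM (SD, n = 4) in pregnant mice, a log2 fold change of 0.92 ± 0.77 (SE, edgeR adjusted p = 0.763), which was 0.30 without vBrL, 0.33 with library batch in place of genotype, 1.65 without v53L and 1.66 without p53L. *Notch3* was at 16.8 ± 11.6 and 13 ± 2.3 CPM (SD), with a log2 fold change of -0.06 ± 0.79 (SE, edgeR adjusted p = 0.994). *Jag1* had a log2 fold change of -1.30 ± 1.03 (SE, edgeR adjusted p = 0.753), which took the opposite sign, at 0.31, without vBrL. *Hes1* was at 100.2 to 129 CPM in the pregnant mice and at 63.3, 73.5 and 137 CPM in the virgin mice, a log2 fold change of 0.38 ± 0.35 (SE, edgeR adjusted p = 0.775).

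Among 39 other pathway genes tested for pregnancy, 0 passed by edgeR, 4 had an unadjusted p under 0.05 (9.74% of all genes) and 3 were called by DESeq2, a share close to the 7.67% of all genes. Without a low-count filter edgeR called 2 of them, *Adam10* (adjusted p = 3.74e-04) and *Aph1c* (adjusted p = 0.0254), where 1.99% of all genes were called. Their median log2 fold change was -0.28, against 0.12 over all genes. *Adam10*, which encodes the protease that makes the first ligand-induced cut in Notch receptors, was at 1304, 325 and 1651 CPM in vBrL, vBr53L and v53L and at 196, 223, 216 and 629 CPM in pBrL-1, pBrL-2, pBr53L and p53L. Its log2 fold change was -1.65 ± 0.40 (SE), with an adjusted p of 0.283 by edgeR and 0.00325 by DESeq2. *Neurl1a*, related to ligand endocytosis, was at 1.92, 29.3 and 1.14 CPM in virgin mice and at 0.387 CPM or less in pregnant mice (edgeR adjusted p = 0.28). *Aph1c*, a gamma-secretase subunit with the near-identical copy *Aph1b*, between which reads may have been split, was at 10.7 to 13.7 CPM in virgin mice and at 0.916 CPM or less in pregnant mice (edgeR adjusted p = 0.331). *Neurl1a* and *Aph1c* were the other 2 called by DESeq2. The 8 hormone-sensing markers, used below to class cells, summed to 2134, 864 and 5090.4 CPM in vBrL, vBr53L and v53L and to 245 to 333 CPM in the pregnant mice, and their part in these differences was not tested. In sums over the cells of a mouse, fewer cells of a type and less RNA per cell cannot be told apart.

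Hormone-sensing cells are one of the types of luminal cell, and the members were also compared between classes of cell within a mouse. A cell was called hormone-sensing-high when its mean log2(CPM + 1) over 8 hormone-sensing markers (such as *Prlr*, *Esr1* and *Pgr*) exceeded that over 5 progenitor and alveolar markers (such as *Kit* and *Elf5*). None of the 10 members was used for this. The class is a range of a score and not a type, and 9 of the 312 luminal cells lay within 0.5 log2 units of the boundary. It held 12 of 35 cells in vBrL, 6 of 39 in vBr53L and 24 of 40 in v53L, and 0 to 3 cells in each pregnant mouse, so that the comparison could be made in the 3 virgin mice, with mouse as a block. When the class was set by summed CPM of the same markers, it held 16, 8 and 25 cells of these mice, and 3, 4, 4 and 8 cells of pBrL-1, pBrL-2, pBr53L and p53L. By that split p53L (8 of 36) and vBr53L (8 of 39) held like shares. With at least 5 cells required in each class, the fit by summed CPM took in p53L beside the 3 virgin mice.

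By edgeR 0 of 6 tested members passed between the classes, where 0.0483% of 10350 genes were called, and 0 had an unadjusted p under 0.05, against 6.54% of genes. By DESeq2 1 member, *Hey1*, was called, where 9.63% of all genes were called. *Hey1* was at 0.148 CPM in the hormone-sensing-high cells and 14.7 CPM in the other cells of vBrL, at 1.04 and 2.57 CPM in vBr53L, and at 2.11 and 79.8 CPM in v53L. It was lower in the hormone-sensing-high cells of all 3 mice, with a log2 fold change of -4.77 ± 2.41 (SE) and an adjusted p of 0.824 by edgeR and 0.0117 by DESeq2.

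The same direction in all 3 mice was found for 4 of the 6 tested members and for 29.5% of all genes tested. *Notch2* was one of them, at 115 and 234 CPM in the hormone-sensing-high and other cells of vBrL, 96.5 and 143 CPM in vBr53L and 141 and 331 CPM in v53L. The log2 fold change was -1.08 ± 0.54 (SE, edgeR adjusted p = 0.824). After thinning *Notch2* was found in 75% and 95.7% of the hormone-sensing-high and other cells of vBrL and in 87.5% and 93.8% of those of v53L, but in 100.0% and 81.8% of those of vBr53L. Its Spearman rho with the hormone-sensing marker level was -0.45, -0.01 and -0.35 in vBrL, vBr53L and v53L. The summed level of *Notch1* was also lower in the hormone-sensing-high cells of the 3 mice, at 2.23 against 17.8 CPM, 5.44 against 10 CPM and 17.9 against 42.5 CPM (edgeR adjusted p = 0.992). Its log2 fold change was -1.84, and -0.36 with the split by summed CPM, where p53L was added to the mice. Other measures of *Notch1* shared this direction in 2 of the 3 mice. After thinning it was found in 8.33% of the hormone-sensing-high and 52.2% of the other cells of vBrL, 16.7% and 21.2% in vBr53L, and 29.2% and 25% in v53L. Its Spearman rho with the hormone-sensing marker level was -0.23, 0.44 and -0.03 over the cells of these mice. *Notch3* was higher in them in the 3 mice, at 19.2 against 7.09 CPM, 26.1 against 6.17 CPM and 35 against 23 CPM (edgeR adjusted p = 0.997). Its log2 fold change was 1.24, and 0.44 with the split by summed CPM and p53L added. The summed level of *Jag1* was not alike in the mice: it was at 64.5 against 16.3 CPM in vBrL, 4.41 against 7.96 CPM in vBr53L, where 1 cell gave 50.6% of the reads, and 110.1 against 0.0617 CPM in v53L. After thinning *Jag1* was found in a larger share of the hormone-sensing-high cells of each mouse, 50% against 8.7% in vBrL, 33.3% against 21.2% in vBr53L and 41.7% against 0% in v53L. How many of all genes had such shares in the 3 mice was not computed. Over the cells of each mouse the level of *Jag1* had a Spearman rho of 0.43, 0.56 and 0.47 with the hormone-sensing marker level. Its log2 fold change was 2.45 ± 2.51 (SE, edgeR adjusted p = 0.994). *Hes1* had a log2 fold change of -0.76 ± 0.84 (SE, edgeR adjusted p = 0.994).

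**Figure D4:**
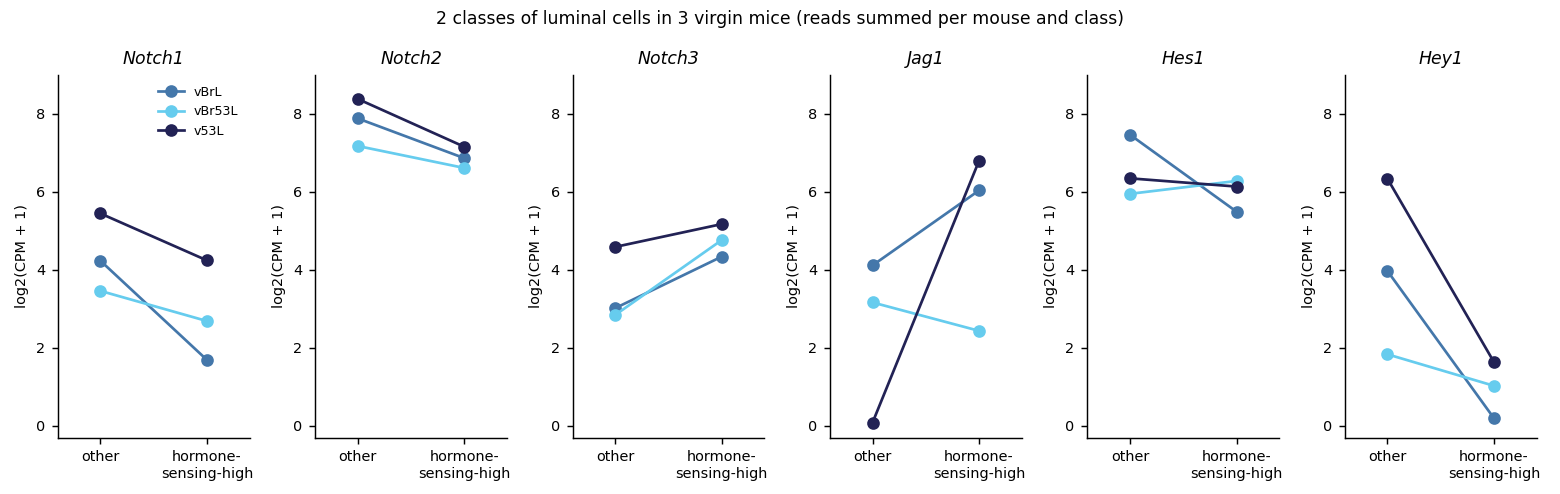
Level of 6 genes in the other luminal cells (left) and the hormone-sensing-high cells (right) of the 3 virgin mice, as log2(CPM + 1) of the reads summed per mouse and class. The lines of *Notch1*, *Notch2* and *Hey1* slope down and those of *Notch3* up in the 3 mice, while those of *Jag1* and *Hes1* cross.

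Of 35 other pathway genes tested between the classes, 0 passed by edgeR, 2 had an unadjusted p under 0.05 (6.54% of all genes) and 3 were called by DESeq2 (*Adam10*, *Neurl1a* and *Maml1*), no larger a share than the 9.63% of all genes. *Adam10* was at 2944 CPM in the hormone-sensing-high and 629 CPM in the other cells of vBrL, 1047 and 178 CPM in vBr53L, and 2653 and 158 CPM in v53L. Its log2 fold change was 2.81 ± 0.43 (SE), with an adjusted p of 0.0941 by edgeR, 8.04e-04 by edgeR without a low-count filter (where 0.616% of all genes were called) and 1.90e-05 by DESeq2. *Neurl1a* was at 6.58, 171 and 1.91 CPM in the hormone-sensing-high cells and at 0, 0.337 and 0 CPM in the other cells of vBrL, vBr53L and v53L (edgeR adjusted p = 0.229). *Snw1* had a log2 fold change of -1.43 ± 0.65 (SE, edgeR adjusted p = 0.778).

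The genotype comparisons were small. Between the 2 Br53 and the 2 Br tumors, edgeR called 0 of 13477 genes (0%), though 537 (3.98%) were under 0.05 before adjustment and DESeq2 called 315 (2.34%). Of the 8 members tested, 0 were called by edgeR, 0 had an unadjusted p under 0.05 and 0 were called by DESeq2. *Hey1* had the largest log2 fold change, 3.69 ± 1.83 (SE, edgeR adjusted p = 1). Without a low-count filter it was called, the 1 of 10 members (edgeR adjusted p = 0.0407, where 1.67% of genes were called), and without Br53T1 its sign turned, at -0.52. With 2 tumors on each side, 3 of the 8 members and 31.9% of all genes tested did not overlap between the genotypes. *Notch1* was higher in both Br53 tumors (22.1 and 36.3 CPM) than in both Br tumors (8.95 and 12.9 CPM), with a log2 fold change of 1.32 ± 1.03 (SE, edgeR adjusted p = 1), and *Notch2* was lower in them (127 and 154 against 167 and 456 CPM, -1.18 ± 0.69, edgeR adjusted p = 1), as was *Notch4* (0.022 and 4.77 against 4.93 and 5.45 CPM). *Dll1* was called without BrT2 (edgeR adjusted p = 0.0344), where 1.5% of genes were called. In that fit the Br arm was BrT1 alone, without a *Dll1* read, and the spread came from the 2 Br53 tumors, so BrT1 was assumed to vary like them.

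Between the 5 *Brca1*-deficient and the 2 *Brca1* wild-type luminal mice, with stage as a covariate, edgeR called 0 of 13709 genes (0%), though 818 were under 0.05 before adjustment and DESeq2 called 514 (3.75%). Of the 7 members tested, 0 were called by edgeR, 0 had an unadjusted p under 0.05 and 0 were called by DESeq2. The log2 fold changes were 0.19 ± 0.38 for *Hes1*, -0.21 ± 0.40 for *Notch2*, -0.27 ± 0.81 for *Notch1*, -0.96 ± 0.78 for *Notch3*, -1.20 ± 2.13 for *Hey1* and -1.27 ± 1.01 for *Jag1* (SE, edgeR adjusted p from 0.789 to 0.957). *Notch4*, with 30 reads over the 7 luminal mice, also entered this fit (edgeR adjusted p = 0.778), and DESeq2 gave it no adjusted p. Of 41 other pathway genes tested here 0 passed by edgeR, 3 had an unadjusted p under 0.05 (5.97% of all genes) and 2 were called by DESeq2. They were *Neurl1b*, at 0 to 21.8 CPM in *Brca1*-deficient and 0 and 0.0218 CPM in wild-type mice (DESeq2 adjusted p = 0.0195, edgeR 0.778), and *Dtx2*, at 1.76 to 15.3 against 0.196 and 1.14 CPM (DESeq2 adjusted p = 0.0468, edgeR 0.778). Of 39 tested between the tumor genotypes these counts were 0, 0 and 0. Both wild-type mice were in library batch SC9, so *Brca1* genotype and batch cannot be told apart. A term for whether the tumor effect differed with *Trp53* genotype, added after the data were seen, called 0 of 8 members by edgeR (0.00664% of all genes) and 0 by DESeq2 (2.74%), and its largest value was that of *Hey1* (6.31 ± 3.12, SE, edgeR adjusted p = 0.92).

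**Figure D5:**
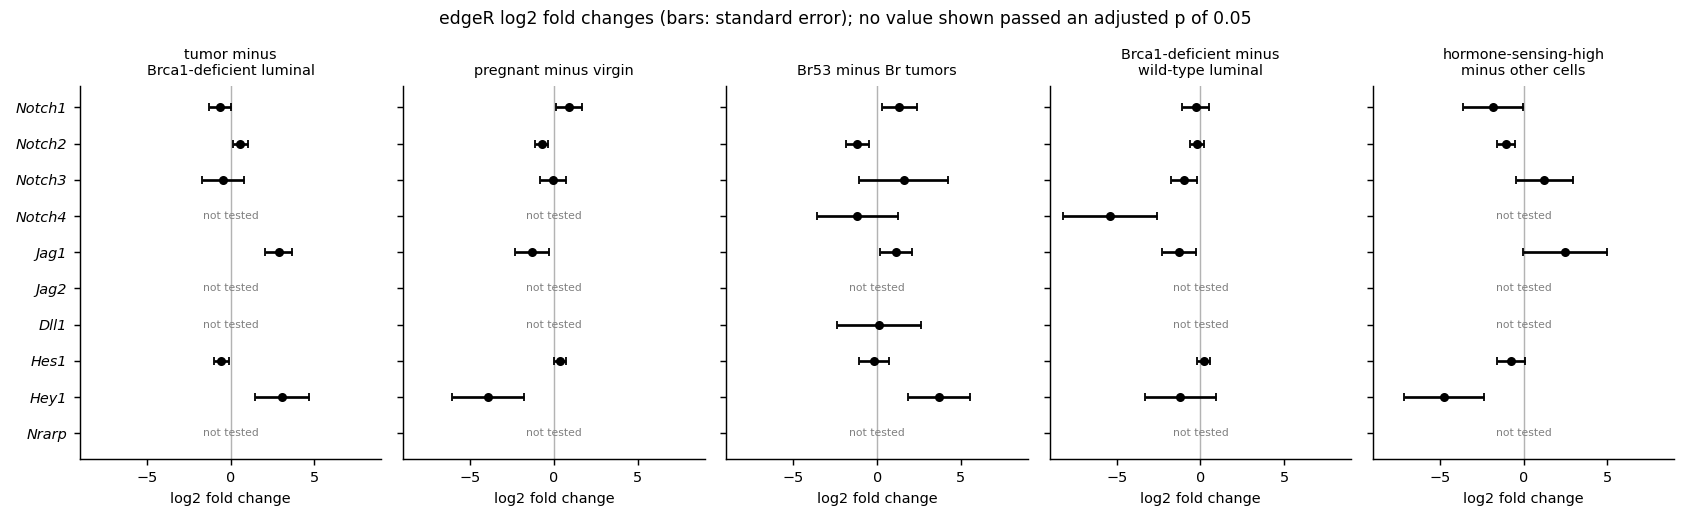
Log2 fold change of each member by edgeR in the 5 comparisons, with its standard error. *Jag1* at 2.87 is the member farthest from 0 relative to its error in the tumor comparison, *Hey1* lies at -3.94 for pregnancy and -4.77 for the hormone-sensing-high cells, and members marked as not tested did not pass the low-count filter.

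The genes most like each member over the 11 mice were found by the Spearman correlation of log2(CPM + 1) among genes that averaged 10 CPM or more, as a description, since tissue, library batch and depth are shared by the points. They were *Paxx* (0.900) and *Ankzf1* (0.882) for *Notch1*, *Slc36a4* (0.955) and *Add1* (0.945) for *Notch2*, *C2cd2* (0.955) and *Paxx* (0.882) for *Notch3*, and *Tmed4* (0.963) and *Aldh2* (0.936) for *Notch4*. For the ligands they were *Ifitm3* (0.955) and *Gigyf1* (0.936) for *Jag1*, *Hyou1* (0.917) and *Acvr1* (0.907) for *Dll1*, and *Calcb* (0.781) and *Tnip3* (0.690) for *Jag2*. For the targets they were *Ago3* (0.936) and *Sesn3* (0.927) for *Hes1*, *Rpl24* (0.945) and *Atp6v1e1* (0.936) for *Hey1*, and *Dcpp1* (0.840) and *Dcpp2* (0.840) for *Nrarp*. Those of *Jag2* and *Nrarp* rest on 2 and 3 mice with a read. Between members, the highest coefficients were 0.66 for *Notch1* with *Notch3* and 0.61 for *Notch4* with *Jag1*.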

How the data were processed

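Reads had been cleaned with sickle and Trim Galore 0.4.1 and mapped to mm10 with STAR 2.5.3a, and the authors deposited raw counts per gene and cell made with Subread 1.5.3 (names from the paper, versions from the submitters' processing notes). The counts carry no molecular identifiers, so PCR copies count separately. The annotation and any filter before deposit are not given in the sources used here. Sites with doublets had been recorded by microscope, and doublets were not called again. No 2 cells had identical values.

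Counts were summed per mouse, the replicate, and tested over all genes with edgeR 4.0.16 (filterByExpr, TMM factors, quasi-likelihood test) in R 4.3.3, calling a Benjamini-Hochberg adjusted p under 0.05. DESeq2 1.42.0, other scalings and filters, other arms and covariates, 30 cells per mouse and leaving out each mouse were the alternatives. Simulated counts with known changes were used to check the edgeR code. Positions and exon lengths came from GENCODE vM21, and CPM was computed from the deposited counts. No cell fell below the 100000 reads used for thinning. Intervals cover counting error only. With 1 mouse in most groups, the spread behind p-values mixes mice with batch and with any genotype or stage that was no covariate. In the cell-class fit it is the spread between mice of the class difference.

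All 10 members are named. Other pathway genes are named where called, or as the 3 with the smallest unadjusted p in the tumor, pregnancy and cell-class comparisons, and the 2 genes most like each member are named. *Dll4* was added after its values were seen. The members, lists and rules were chosen with earlier results of these data known.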

Additional observations from a re-analysis of the deposited data

Results flagged for a closer look

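In 27 pairs of a member and a group of 4 to 7 mice, 4 single mice stood far from the rest of their group on the log2(CPM + 1) scale. The usual rate of about 1 in 20 by chance does not hold for these groups, since they share mice and mix genotypes or stages. The 4 flags are thus no measure of an excess. *Notch3* in v53L was at 4.96, against 3.40 to 4.06 in the other 6 luminal mice. *Notch4* in Br53T2 was at 0.03, against 2.53 to 2.69 in the other 3 tumors. *Jag2* in Br53T2 was at 2.08, and the other 3 tumors had no read. It passed the minimum level for this check only through Br53T2, so its flag was fixed in advance. *Hes1* in vBr53L was at 6.01, against 6.83 to 7.11 in the other 4 *Brca1*-deficient luminal mice.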

How the results depend on the processing

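Of 362 refits of a member's log2 fold change under another setting, 341 kept its direction and its side of the threshold, 5 passed the threshold only there and 16 changed sign, each of these 16 uncalled in both fits. DESeq2 fits without an adjusted p, those of *Hey1* in tumors and *Notch4* for *Brca1* genotype, were counted among the 341. The sign changes were *Notch3* for pregnancy (-0.06, then 0.40 without v53L, 0.40 without p53L and 0.02 without pBrL-2), *Jag1* for pregnancy (-1.30, then 0.31 without vBrL and 0.34 with library batch in place of genotype), *Jag1* between tumor genotypes (-0.10 without Br53T2), *Dll1* (-0.91 without BrT1, -0.29 without Br53T2), *Hes1* (0.24 without BrT2, 0.50 without Br53T1) and *Hey1* (-0.52 without Br53T1). For *Brca1* genotype in luminal cells they were *Notch1* (0.18 without vBr53L, 1.21 without v53L), *Notch2* (0.07 without v53L), *Hes1* (-0.06 without vBrL) and *Hey1* (0.64 without v53L). Over the fits with a mouse left out, these values reached -0.36 (*Notch3*) and -2.29 (*Jag1*) for pregnancy, 2.26 (*Jag1*), 14.13 (*Dll1*), -1.73 (*Hes1*) and 5.86 (*Hey1*) between tumor genotypes, and -1.41 (*Notch1*), -0.49 (*Notch2*) and -2.50 (*Hey1*) for *Brca1* genotype at the other end. Of values that kept their sign, those that moved most with a mouse left out were *Notch3* (1.58, then 0.58 to 13.20) and *Notch4* (-1.19, then -7.88 to -0.20) between tumor genotypes, *Notch4* (-5.40, then -7.97 to -2.79) for *Brca1* genotype and *Jag1* (2.45, then 0.57 to 5.64) for the cell classes. The 14.13 of *Dll1* and the 13.20 of *Notch3* are set against BrT1 alone. That tumor had no read of either gene, so the size of these values depends on the prior count. The 5 calls were *Jag1* in tumors and *Hey1* for pregnancy and cell class by DESeq2, and *Hey1* without a filter and *Dll1* without BrT2 between tumor genotypes. *Dll1* was also called in tumors without BrT1, outside these 362 refits since it was untested with all mice. Over all *Jag1* refits of the tumor comparison the adjusted p ran from 0.0084 to 0.279. The counts of called genes over the whole table moved more. For tumors (79) they were 808 by DESeq2, 129 without a filter, 124 by library size alone, 213 against 7 luminal mice, 44 against pregnant mice and 11 to 94 with a mouse left out, lowest without pBrL-1, then pBr53L (19) and pBrL-2 (29). Library size alone put 94 of its calls higher in tumors and 30 lower, against 51 and 28, and moved the median log2 fold change of all genes from 0.06 to 0.20. For pregnancy (2) they were 967 by DESeq2, 366 without a filter, 1 with 30 cells per mouse, 17 without covariate, 42 with library batch and 0 to 4. For tumor genotype (0) they were 315 by DESeq2, 295 without a filter and 0 to 228, highest without BrT2. For *Brca1* genotype (0) they were 514, 10 and 0 to 127, highest without p53L. For the cell classes (5) they were 997, 94, 15 by RLE size factors, 17 when split by summed CPM and 6 to 131, highest without vBrL. For the interaction term (1) DESeq2 gave 412. The cause of these moves was not tested. Without thinning, 33 of 110 shares of cells left their interval. With Pearson's r, 1 of the 2 named neighbors was shared for *Notch3*, *Jag1* and *Hey1* and 0 for the other 7 members. Apart from the mouse block of the cell classes and the library batch term for pregnancy, no paired analysis was possible because the groups came from different mice.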
